A study of Mus musculus with 2 samples.

Results

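The cytosolic ribosomal protein genes were taken from the deposited table by symbol, as Rpl or Rps followed by a number, together with Rplp0, Rplp1, Rplp2 and Rpsa, without pseudogenes and without the S6 kinases. The rule gave 84 genes of 23227 in the table, 51 of the large and 33 of the small ribosomal subunit. Of these, 77 (46 large, 31 small) had a mean of at least 20 normalised reads and were tested, among 11710 tested genes in all. The KO line carried Dicer -/- and the WT line Dicer f/f, that is, floxed alleles. Both were monoclonal immortalised murine lines of adult mesenchymal stem cells, also labelled fibroblasts, grown in the same medium with serum and lysed below confluence. Each genotype is 1 clone, so genotype and clone cannot be told apart. The labels do not give the Cre driver, the age or the strain.

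The ribosome joins a large and a small subunit, each built from ribosomal RNA and a fixed set of proteins, most of them present in a single copy per particle. Their messages are among the most abundant in dividing cells, and most begin with a terminal oligopyrimidine (TOP) tract, a C followed by a run of C and T. Through this tract the kinase mTORC1 and the RNA-binding protein Larp1 control the translation and stability of the messages. Many of these genes also have near-identical processed pseudogenes in the genome, and how the authors' counter treated reads that fit both is not given, so the level of any one gene is uncertain to that extent.

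Letters near the transcription start are shown for members at both ends of the KO over WT ratios described below, because C and T runs there are the feature these genes are known for. Each line gives 30 bases of the gene's own strand from RefSeq on GRCm38.p6. Capitals mark the longest unbroken run of C and T between 30 bases before and 50 after the annotated start, the earliest where runs tie.
Rps27l (chr9:66946053-66946082, plus strand): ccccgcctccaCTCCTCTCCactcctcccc
Rpsa (chr9:120127774-120127803, plus strand): tccggccgcccgTCCTTTCgcgctacccgg
Rps12 (chr10:23787182-23787211, minus strand): ccaccgccggCCTTTTCCCCTgccgccgcc
Rps25 (chr9:44407684-44407713, plus strand): ccaccgggCTTCCTTTTTTTCCgacatctt
Rpl41 (chr10:128549119-128549148, minus strand): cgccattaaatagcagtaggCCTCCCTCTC
Rplp0 (chr5:115559466-115559495, plus strand): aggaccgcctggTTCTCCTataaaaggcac
Rpl13a (chr7:45128722-45128751, minus strand): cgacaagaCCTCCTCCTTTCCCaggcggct
Rps3a (RefSeq symbol Rps3a1, chr3:86142623-86142652, minus strand): acgtagacggcgCTCCCCgcccggctcgcg
Rps7 (chr12:28635911-28635940, minus strand): ctgtccccaCCTCTTTTCTTCCgccacccg
Counted from 1 at the annotated start, the marked runs begin at -22 in Rps27l and Rps25, 3 in Rpl13a, 9 in Rps12, 12 in Rplp0, 21 in Rpsa, 23 in Rps7, 29 in Rps3a and 41 in Rpl41. None begins at the annotated first base, so they are runs near the start and were not read as TOP tracts. The first 6 had ratios under 0.5 and the last 3 were among the 6 highest ratios. Long C and T runs stood at both ends: 14 bases in Rps25, the run of Rpl13a was also 14 bases, and that of Rps7 was 13 bases. Short runs stood at both ends too, with 7 bases in Rpsa and in Rplp0 and 6 bases in Rps3a. The rest of the 6 highest ratios, not shown, had runs of 10 bases in Rpl22l1, 6 in Rps3 and 5 in Rpl19. Rplp1, also among the lowest ratios, had no matched promoter and is not shown.

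The promoter table matched 63 of the 84 members. The letters CTTTC, searched on the gene's strand from 50 bases before to 50 after the start, were found in 30 of these 63 (47.6%), against 12.6% of all 27025 promoters in the table. On the other strand of the same windows the shares were 12.7% of the members and 11.8% of all promoters. A C and T run of at least 8 bases was found in 47 members (74.6%), against 28.9% of all promoters. The motif CCGGAAG, which ETS-family factors bind, was searched on both strands over 300 bases and was found in 25 members (39.7%), against 9.12% of all promoters and 18.5% of tested genes outside the members. CTTTC lies inside a C and T run by its letters, and overlaps of these motifs with each other were not removed. Among members at least 2-fold lower in KO, 4 of 13 with a promoter held CTTTC (30.8%), against 24 of 45 other tested members (53.3%). A run of at least 8 bases was found in 11 of the 13 (84.6%) and in 32 of the 45 (71.1%). These are counts of letters and were not tested.

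The labels list 1 sample per genotype, but the deposited means resolved into 2 libraries per genotype, whose relation is unknown. These 4 recovered libraries had 15718369 and 14969532 reads in genes in KO and 15369250 and 14135422 in WT, the deeper library of each genotype first. That order is kept for every pair of library values below. Dicer1, the targeted gene, had 565 normalised reads in KO (573 and 557) against 873 in WT (804 and 943), and a value per gene cannot separate its deleted part from the rest. Of 10 mesenchymal stem cell markers 9 were tested, the exception being Thy1, which was listed at 0 in both genotypes, and 6 of 8 fibroblast markers were tested. Of the haematopoietic markers 2 were tested, Cd14, with 180 normalised reads in KO against 123 in WT, and Cd68, with 29.1 in KO against 26.9 in WT, while Ptprc averaged 1.46 in KO and 0.561 in WT and Cd3e was listed at 0. Of the epithelial markers 1 was tested, Krt8, with 34.2 in KO against 26.3 in WT, and Epcam was listed at 0. No endothelial or pluripotency marker reached 20 normalised reads.

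Ribosomal protein messages took a smaller share of the RNA in KO. They held 2.92% and 4.98% of all reads in genes in the KO libraries (mean 3.95%), against 5.74% and 7.18% in the WT libraries (mean 6.46%). The highest KO share was below the lowest WT share, and the libraries of 1 genotype also differed widely from each other. Because these are bulk samples, fewer cells that express a gene and less RNA per cell cannot be told apart. The large subunit supplied 58.2% and 58.7% of the ribosomal protein reads in KO and 57.9% and 58.2% in WT, so the division between subunits was nearly the same in all 4 libraries.

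Markers of the lines' own cell type differed between the genotypes as well. In the authors' deposited table, 2 of the 9 tested mesenchymal stem cell markers passed, Mcam lower (ratio 0.0341, adjusted p 0.00556) and Vcam1 higher (2.81, adjusted p 0.0849). Of the 6 tested fibroblast markers 3 passed in the authors' deposited table, the collagen genes Col1a1 (0.432, adjusted p 0.0121) and Col1a2 (0.486, adjusted p 0.0419) lower and Col3a1 (5.58, adjusted p 3.50e-04) higher. None of these 5, named because they passed there, overlapped between genotypes. Of all tested genes, 5.34% passed as lower and 5.56% as higher in the authors' deposited table. Genotypes without overlap were found in 28.8% with KO as the lower one and in 30.4% with KO as the higher one. Summed, the mesenchymal stem cell markers held 0.221% and 0.236% of the reads in KO against 0.210% and 0.251% in WT, and the fibroblast markers 1.3% and 1.15% in KO against 1.34% and 1.51% in WT. The part of these marker differences in the ribosomal protein result was not tested.

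**Figure D1:**
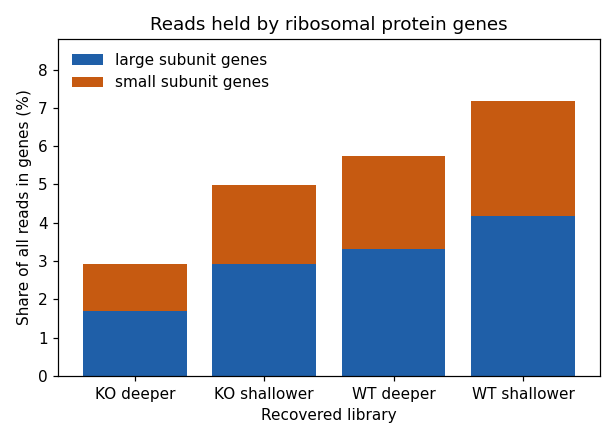
Share of all reads in genes (percent, vertical axis) held by large subunit and small subunit genes, stacked, in each of the 4 recovered libraries. The KO bars reach 2.92% and 4.98%, below the WT bars at 5.74% and 7.18%.

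Nearly every member leaned the same way. Of the 77 tested members, 76 had a KO over WT ratio below 1, against a background of 50.4% of all tested genes, and 1 had a ratio above 1, against 49.6%. The median ratio was 0.632 (log2 -0.66), with quartiles of 0.510 and 0.728. The median log2 ratio of all tested genes was -0.01, which the scaling between libraries holds near 0 by design. The 1 exception was Rps7. The median log2 ratio was -0.65 over the 46 large subunit genes and -0.68 over the 31 small subunit genes, a difference of 0.03. Leaving out the shallower KO library made that difference -0.052, leaving out the deeper WT library made it -0.045, so the data give no steady order of the subunits. Summed over members, the normalised reads of KO were 0.585 of those of WT.

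At least 2-fold lower in KO were 17 members (8 large, 9 small), against 8.56% of all tested genes, and 0 were at least 2-fold higher, against 8.92%. Among them, in order of ratio, were Rps27l, Rplp1, Rpsa, Rps12, Rps25, Rpl41, Rpl29, Rpl14, Rpl36a, Rps26, Rplp0, Rpl39, Rps20, Rps15, Rpl9 and Rps6. With the deeper or the shallower KO library left out the count was 7 or 54, and with the deeper or the shallower WT library left out it was 27 or 10. Shares of all tested genes under these settings are not given here. The first 7 named kept the call whichever library was left out. The other 10 of the 17 lost it without the deeper KO library, and 7 of these also lost it without the shallower WT library. At 1.5-fold, 50 members were lower, against 17.9% of tested genes. Close to the 2-fold limit were Rps6 (0.498) inside it and Rpl37a (0.501) and Rpl10 (0.508) outside it.

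In the authors' deposited table, 14 members were lower at an adjusted p of 0.1 (6 large, 8 small), against 5.34% of tested genes, and 0 were higher, against 5.56%. At an adjusted p of 0.05 in the authors' deposited table the count was 9, for which no share of all tested genes is given here. Of the 14, 12 were also at least 2-fold lower, and the other two were Rpl10 and Rps28. Rpl14, Rpl36a, Rpl9 and Rps6 were among those at least 2-fold lower without passing in the authors' deposited table, with adjusted p between 0.141 for Rpl9 and 0.203 for Rps6. limma on the recovered libraries called 1 member lower at an adjusted p of 0.05, Rps27l, against 4.14% of tested genes, and 0 higher, against 4.61%. At an adjusted p under 0.1 limma had 10 members lower, for which no share of all tested genes is given here. At an unadjusted p of 0.05 limma had 23 members lower, against 14.2% of tested genes, and 0 higher, against 14.9%.

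The genotypes did not overlap in 45 members with KO as the lower one (28 large, 17 small), against 28.8% of tested genes, and in 0 with KO as the higher one, against 30.4%. In Rps27l, Rplp1 and Rpsa the gap between the nearest libraries was at least 2-fold, against 4.82% of tested genes, and no member had such a gap in the other direction, against 4.99%. The other 32 members had overlapping genotypes.

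**Figure D2:**
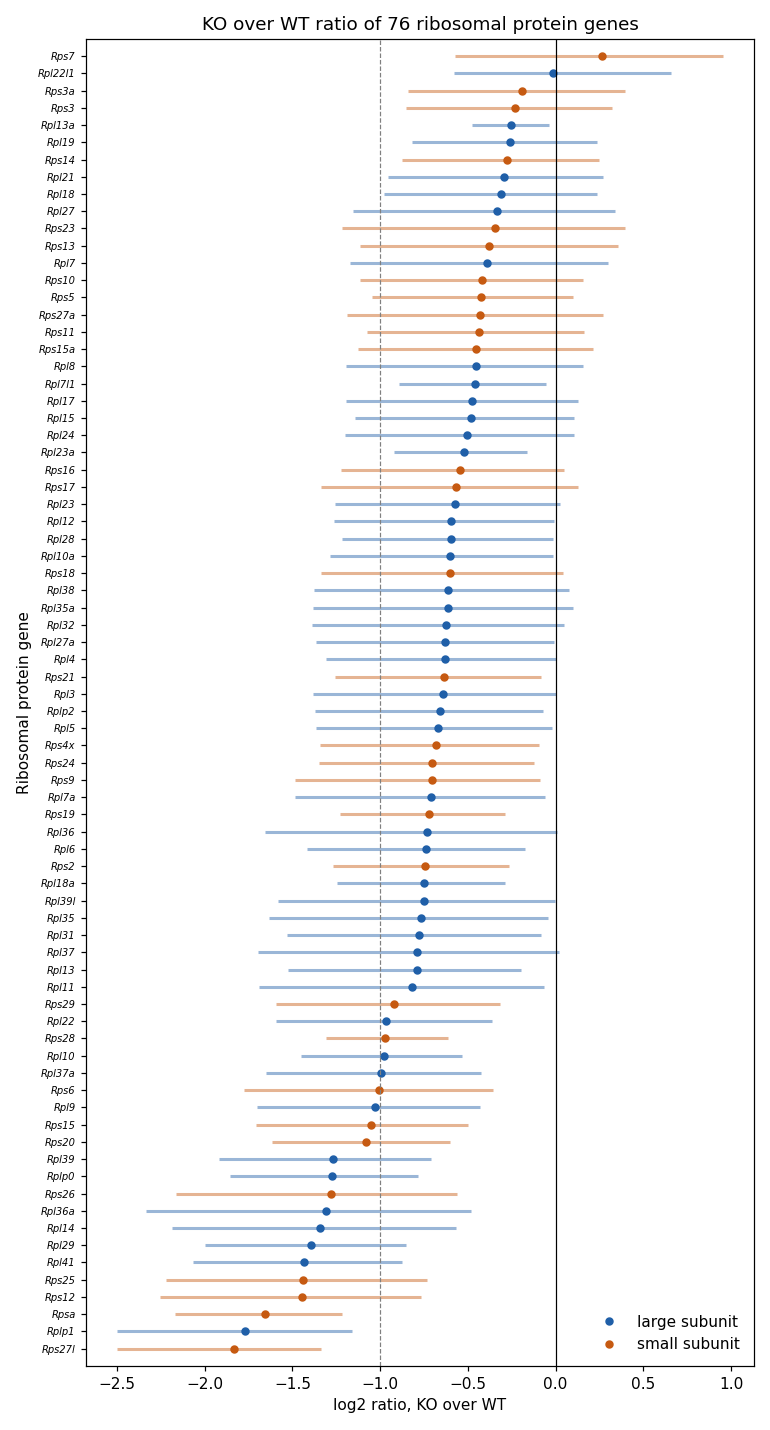
log2 ratio of KO over WT (horizontal axis) for 76 of the 77 tested ribosomal protein genes, sorted from highest at the top, where each point is the ratio of the authors' means and each line spans the lowest to the highest ratio of a KO library over a WT library. Only Rps7 lies right of 0, and 16 of those drawn lie at or left of the dashed line, which marks 2-fold lower.

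The libraries of each genotype also differed from each other in these genes. All 77 members were higher in the shallower than in the deeper library, in KO and again in WT. The median ratio of the shallower over the deeper library was 1.79 in KO, between 1.20 for Rps28 and 2.37 for Rpl36a, and 1.36 in WT, between 1.11 for Rps27l and 1.85 for Rpl22l1. Over all tested genes the median log2 ratio of the shallower over the deeper library was -0.02 in KO and -0.01 in WT. The scaling between libraries holds such medians of all genes near 0 by design.

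The size of the KO over WT difference therefore depended on which libraries were paired. The members' median log2 ratio was -0.88 between the deeper libraries and -0.52 between the shallower ones. It was -1.35 for the deeper KO over the shallower WT library and -0.035 for the shallower KO over the deeper WT library. What moved these messages between libraries of 1 genotype was not tested, and its part in the difference between genotypes was not tested.

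Transcript length and abundance were set beside the ratios. The tested members had a median transcript length of 751 bases, against 2845 bases for all tested genes. The 576 tested genes outside the members with transcripts between 552 and 977 bases, the quartiles of the members, had a median log2 ratio of -0.29, with 61 at least 2-fold lower and 32 higher. Their median log2 ratio of the shallower over the deeper library was 0.20 in KO and 0.02 in WT, where that of the members was 0.84 and 0.44. The 443 genes outside the members that were at least as abundant as the members' lower quartile had a median log2 ratio of -0.05, with 25 lower and 14 higher. Among the 77 members, the log2 KO over WT ratio and log2 transcript length had a Pearson r of 0.127 and a Spearman rho of 0.163, as a description over genes that share the same libraries. The part of transcript length in the result was not tested.

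The stalk proteins carry the elongation factors to the large subunit. Of their 3 genes, Rplp1 had the lowest ratio of the large subunit, while Rplp2 lay at the members' median. Rplp1 had 4698 and 9008 normalised reads in the KO libraries, against 20144 and 26613 in the WT libraries. The genotypes stood well apart, and the higher KO library was below the lower WT library. Its mean fell 3.41-fold, to a ratio of 0.293 (counting interval 0.288 to 0.299), with an adjusted p of 1.79e-04 in the authors' deposited table and 0.0565 in limma. Rplp0, the stalk base, had 17311 and 29748 normalised reads in KO against 51288 and 62707 in WT, again without overlap. The authors' deposited table gives an adjusted p of 0.00567 at a ratio of 0.413. Leaving out the deeper KO library moved the ratio to 0.522, just short of 2-fold. Rplp2, the partner of Rplp1 in the stalk dimers, had 1568 and 2969 in KO against 3120 and 4055 in WT, a ratio of 0.632 (adjusted p 0.563 in the authors' deposited table). Here the genotypes were separated only narrowly.

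Rpl41, Rpl29 and Rpl39 were the other large subunit genes that passed both rules. Rpl41, which codes for one of the shortest proteins known, had 4771 and 8183 normalised reads in the KO libraries and 14995 and 19969 in the WT libraries. It did not overlap between genotypes and fell to a ratio of 0.370, with an adjusted p of 0.00354 in the authors' deposited table. Rpl29, a basic protein of the subunit surface, had 3435 and 5759 in KO against 10396 and 13750 in WT. It was also free of overlap, at a ratio of 0.381, with an adjusted p of 0.00349 in the authors' deposited table. Rpl39, a small protein of the exit tunnel wall, had 2086 and 3712 in KO against 6072 and 7891 in WT. Its ratio was 0.415, with an adjusted p of 0.0114 in the authors' deposited table, and the groups again did not meet.

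Rpl10, which joins the subunit in its last step of maturation and forms part of the site where subunits meet, had 7930 and 11710 in KO against 16940 and 21726 in WT. It just missed the 2-fold limit at 0.508 and passed in the authors' deposited table with an adjusted p of 0.0698. Rpl14 (0.394), Rpl36a (0.403) and Rpl9 (0.490) passed the 2-fold limit without overlap, and lost the call without the deeper KO library, at 0.518, 0.567 and 0.622, or without the shallower WT library, at 0.514, 0.510 and 0.584.

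Rpl5 and Rpl11 form a particle with a small ribosomal RNA and bind the ubiquitin ligase Mdm2 when ribosome assembly fails. Rpl5 had 9096 and 15574 normalised reads in KO against 15774 and 23443 in WT, a ratio of 0.629. Rpl11 had 4472 and 9096 in KO against 9528 and 14435 in WT, a ratio of 0.566. Both genes were separated between genotypes by a narrow margin, and neither passed the 2-fold rule or the authors' test. Rpl35a, a gene of Diamond-Blackfan anaemia in humans, was at 0.653, Rpl38, known for its role in the patterning of the mouse skeleton, at 0.655, and Rpl13a, which in humans also leaves the ribosome to block translation of certain inflammatory messages, at 0.839. Rpl13a was the least reduced member whose genotypes did not overlap, with 7512 and 9045 in KO against 9266 and 10470 in WT.

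On the small subunit, Rpsa was the abundant gene with the lowest ratio. Its product sits on the subunit's surface and was first described as a laminin receptor. The KO libraries held 14006 and 22557 normalised reads, against 52534 and 62946 in the WT libraries. The gap between the nearest libraries was more than 2-fold. Rpsa fell 3.16-fold, to a ratio of 0.317 (counting interval 0.313 to 0.320), with an adjusted p of 9.79e-05 in the authors' deposited table and 0.0582 in limma.

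Rps12 and Rps25 followed. Rps12 had 5658 and 11403 normalised reads in KO against 19411 and 26975 in WT, a ratio of 0.368 (adjusted p 0.0225 in the authors' deposited table). Rps25, which some viral messages need to start translation without a cap, had 2112 and 3888 in KO against 6473 and 9826 in WT, also a ratio of 0.368 (adjusted p 0.0676 in the authors' deposited table). In both genes the genotypes were clearly separate.

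Rps26 (0.411), Rps20 (0.473), Rps15 (0.482) and Rps28 (0.510) also passed in the authors' deposited table, with adjusted p of 0.0905, 0.0328, 0.0632 and 0.0836. All 4 had both KO libraries below both WT libraries. Rps28 varied least between the KO libraries, at 1905 and 2283, against 3488 and 4716 in WT. Rps6, the classic substrate of the S6 kinases, had 7591 and 14731 in KO against 18893 and 25963 in WT. Its ratio of 0.498 passed the 2-fold rule but not the authors' test, and with the deeper KO library left out it was 0.657. Rps19, the gene most often mutated in Diamond-Blackfan anaemia in humans, was at 0.606, and Rps27a, which is made as a fusion with ubiquitin, at 0.743.

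At the other end stood Rps7, a small subunit protein that also binds Mdm2. Rps7 had 5265 and 10895 normalised reads in KO against 5619 and 7827 in WT. The WT libraries lay within the KO range, and the ratio of 1.20 came with an adjusted p of 1 in the authors' deposited table. With the deeper KO library left out its log2 ratio was 0.70, and with the shallower one left out it was -0.35, so its direction rested on 1 library. Rps3a (0.876), Rps3 (0.851), Rpl13a (0.839) and Rpl19 (0.836) were the next highest of the main genes, and of these only Rpl13a was free of overlap. With the deeper KO library left out the log2 ratios of Rps3a, Rps3 and Rpl19 turned to 0.14, 0.10 and 0.05.

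Rps2, at the entrance of the message channel, was the most abundant member. It had 31056 and 48218 normalised reads in KO against 57967 and 74847 in WT, a ratio of 0.597 without overlap, but it passed neither the 2-fold rule nor the test in the authors' deposited table, where its adjusted p was 0.251. The other abundant members were Rplp0 and Rpsa, described above, and Rpl4 (0.645), Rpl13 (0.578) and Rpl8 (0.730), all structural proteins of the large subunit. Scaled by transcript length, the levels of the tested members ranged in KO between 668 normalised reads per kilobase for Rpl22l1 and 39717 for Rps2 (median 8408), and in WT between 675 for Rpl22l1 and 66540 for Rps2 (median 13412).

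**Figure D3:**
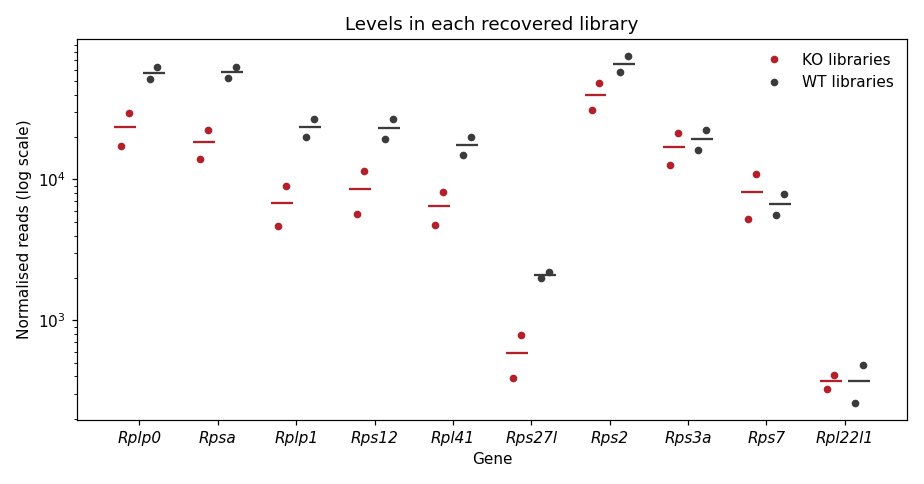
Normalised reads (log scale, vertical axis) of 10 ribosomal protein genes in the KO (red) and WT (dark grey) libraries, with points for the 2 libraries of each genotype and a line for the authors' mean. The genotypes are separate for the first 7 genes and overlap for Rps3a, Rps7 and Rpl22l1.

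The rule also took in paralogues, genes related to a main ribosomal protein gene, some of whose products can stand in for the main protein. Rps27l, a paralogue of Rps27 known in mouse and human as a target of p53, had the lowest ratio of all members. It had 393 and 790 normalised reads in the KO libraries and 2000 and 2222 in the WT libraries. It fell 3.57-fold, to a ratio of 0.280 (counting interval 0.263 to 0.299), with an adjusted p of 2.37e-05 in the authors' deposited table and 0.0448 in limma. Its main gene, Rps27, was not tested, at 7.36 and 17.9 in KO against 7.71 and 14.6 in WT.

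Rpl22l1 is repressed by its main gene Rpl22 in mouse. Rpl22l1 had 325 and 413 normalised reads in KO against 261 and 484 in WT, with the KO values inside the WT range and a ratio of 0.989. Its log2 ratio was 0.50 with the shallower WT library left out and -0.39 with the deeper one left out. Rpl22 had 2388 and 3817 in KO against 4912 and 7199 in WT, a ratio of 0.512 without overlap, for which the authors' deposited table gives an adjusted p of 0.234. The difference between these 2 ratios was not tested. Rpl39l, best known from testis, was at 0.595 beside 0.415 for Rpl39, and Rpl7l1 was at 0.728 beside 0.761 for Rpl7.

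Besides Rps27, 6 members were below 20 normalised reads on average. Rpl26, a main large subunit gene, and Rpl10l, a testis paralogue of Rpl10, were listed at 0 in all 4 libraries. Rpl30 averaged 5.17 in KO and 7.22 in WT, and Rpl34 averaged 7.20 in KO and 21.1 in WT. Rpl3l, a muscle paralogue of Rpl3, averaged 1.42 in KO and 1.60 in WT, and Rps4y2, whose main gene Rps4x was at a ratio of 0.623, had 0 reads in KO and averaged 1.04 in WT. Rpl26, Rpl30, Rpl34 and Rps27 code for proteins of every ribosome, so their values in the table were not read as levels.

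The make-up of the pool was then compared, as each gene's share of the ribosomal protein reads of its library, which takes out what all members share. Over 77 genes, the log2 shares of the KO libraries had a Pearson r of 0.988, those of the WT libraries 0.995, and pairs across genotypes between 0.928 and 0.943. The median absolute log2 difference of a gene's share was 0.10 between the KO libraries, 0.07 between the WT libraries and 0.25 between the genotypes' means. These are descriptions over genes of the same libraries. On this scale KO was the lower genotype without overlap in 21 members and the higher one in 42, where all tested genes scaled in the same way gave 5.24% below and 60.2% above.

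Rplp1 was 1.11% and 1.21% of the pool in KO, against 2.37% and 2.34% in WT. Rpsa was 3.32% and 3.04% in KO against 6.18% and 5.53% in WT. Rps7 was 1.2% and 1.5% in KO against 0.661% and 0.688% in WT. In these genes the shares of 1 genotype's libraries were close to each other and far from those of the other genotype. The lowest pool ratios of KO over WT were 0.463 for Rps27l, 0.494 for Rplp1 and 0.543 for Rpsa. The highest were 2.01 for Rps7, 1.81 for Rpl22l1 and 1.51 for Rps3a. Rps7, whose normalised reads overlapped between genotypes, thus took a larger share of a smaller pool in both KO libraries.

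**Figure D4:**
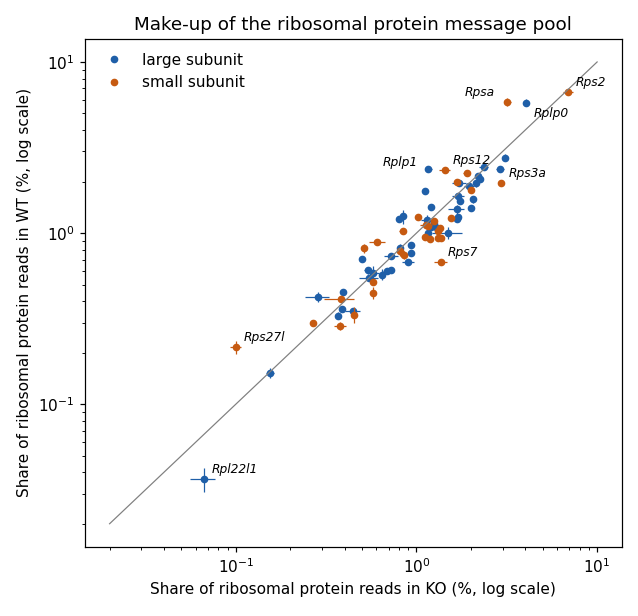
Share of all ribosomal protein reads (percent, log scales) held by each of the 77 tested genes in KO (horizontal axis) and WT (vertical axis), with lines for the range of the 2 libraries of each genotype and a diagonal of equal shares. Rps27l, Rplp1 and Rpsa lie above the diagonal and Rps7, Rpl22l1 and Rps3a below it.

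Genes that make or control ribosomes were followed as lists chosen by function. Of 4 ribosomal proteins outside the symbol rule, Fau was at a ratio of 0.567, Rpl36al at 0.711 and Gnb2l1, an older symbol of Rack1, at 0.875. All 4 had ratios below 1, with a median log2 ratio of -0.52, and 0 of 4 passed either rule. With the shallower KO library left out 2 were at least 2-fold lower. The 76 mitochondrial ribosomal protein genes, whose products build the separate ribosome of that organelle, had a median log2 ratio of -0.13, with 1 lower and 1 higher by the 2-fold rule, against 8.56% and 8.92% of tested genes. That median was 0.06 with the deeper KO library left out and -0.30, with 11 lower and 0 higher, with the shallower KO library left out. With the deeper WT library left out 4 were lower. Mrpl33 had 136 and 347 normalised reads in KO against 681 and 826 in WT (ratio 0.321, adjusted p 6.40e-04 in the authors' deposited table). Mrpl38 had 869 and 1007 in KO against 465 and 444 in WT (ratio 2.07, adjusted p 0.0711 in the authors' deposited table). Neither gene overlapped between genotypes. In the mitochondrial list the median log2 ratio of the shallower over the deeper library was 0.41 in KO and 0.16 in WT, smaller than in the cytosolic one.

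Of 24 other TOP messages, 7 were at least 2-fold lower and 0 higher, against 8.56% and 8.92% of tested genes, with a median log2 ratio of -0.63. With the deeper KO library left out 0 were lower and the median was -0.22, and with the shallower KO library left out 13 were lower and the median was -1.06. With the deeper or the shallower WT library left out, 9 or 2 were lower. Eef1a1, the elongation factor that brings transfer RNA to the ribosome, had 60672 and 87886 normalised reads in KO against 150123 and 198978 in WT. It was the only gene of this list to pass in the authors' deposited table, at a ratio of 0.426 and an adjusted p of 0.00918. Gas5 (0.366), Snhg12 (0.379) and Snhg1 (0.392), which host small nucleolar RNAs, and Pabpc4 (0.392), a poly(A)-binding protein, had the lowest ratios. The highest was that of Eif3e (1.14). Ratios were below 1 in 18 of the 24, against 50.4% of tested genes, and the others were above 1. KO was the lower genotype without overlap in 11 of the 24, against 28.8% of tested genes, and the higher one in 1, against 30.4%. The shallower library was also the higher one here, with a median log2 ratio over the deeper of 0.74 in KO and 0.52 in WT.

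Of 62 ribosome assembly factors, 3 were at least 2-fold lower and 0 higher, a smaller share than the 8.56% and 8.92% of tested genes, and 0 passed in the authors' deposited table in either direction. Their median log2 ratio of -0.22 had no steady sign. It was 0.08 with the deeper KO library left out and 0.11 with the shallower WT library left out, each with 0 lower, and -0.58 and -0.50 with the other library of each genotype left out, each with 11 lower. The 3 were Nop16 (0.441), Tsr2 (0.454), which escorts Rps26 in yeast and human, and Rrp9 (0.497). Of 16 tested genes of RNA polymerase I and its factors, 2 were lower, Polr2e (0.461, adjusted p 0.0329 in the authors' deposited table), a subunit shared by all 3 nuclear RNA polymerases, and Taf1d (0.475). The share lower over all tested genes was 8.56%. The median log2 ratio of that list was -0.09, and it turned to 0.06 with the deeper KO library left out, with 0 lower and 2 higher, and to 0.02 with the shallower WT library left out, with 0 lower and 1 higher.

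Of 24 genes of mTORC1 and of Larp control, 0 were lower and 2 higher by the 2-fold rule, against 8.56% and 8.92% of tested genes, and 0 passed in the authors' deposited table. With the deeper KO library left out 2 were lower and 0 higher, and with the shallower WT library left out 0 were called. The median log2 ratio was 0.21, and between 0.17 and 0.27 with each library left out. Sesn2 and Ddit4, stress-induced inhibitors of mTORC1, were the higher 2. Sesn2 had 1675 and 615 normalised reads in KO against 698 and 308 in WT, and Ddit4 had 2186 and 792 in KO against 998 and 323 in WT. The genotypes overlapped in both, and both were higher in the deeper library of each genotype, the opposite of the ribosomal protein genes. Larp1 was at a ratio of 1.19 and Mtor at 1.12. Of 8 tested genes taken as S6 kinases by symbol, Rps6ka5 was higher by the 2-fold rule (2.82), a call lost with the deeper KO library left out. Rps6ka4 fell to a ratio of 0.518, with an adjusted p of 0.0878 in the authors' deposited table. Rps6kb1 and Rps6kb2, also counted among the genes of mTORC1 control, were at 1.07 and 0.774, and neither passed either rule.

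Of 8 genes listed for p53, its regulators and its targets, 2 were at least 2-fold lower and 0 higher, against 8.56% and 8.92% of tested genes. The number lower was 1 with the deeper KO library left out and 0, with 1 higher, with the deeper WT library left out. Zmat3, a p53 target, had 352 and 409 normalised reads in KO against 943 and 678 in WT, without overlap, at a ratio of 0.470, for which the authors' deposited table gives an adjusted p of 0.0465. Ccng1, another p53 target, was at 0.456 and did not pass in the authors' deposited table. Mdm2 was at 0.652, Trp53 at 1.05 and Cdkn1a at 1.19. Of 3 ribosomal protein pseudogene rows, 1 was tested, Rps19-ps3, with 35.0 and 52.7 in KO against 48.2 and 49.3 in WT, which overlapped.

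**Figure D5:**
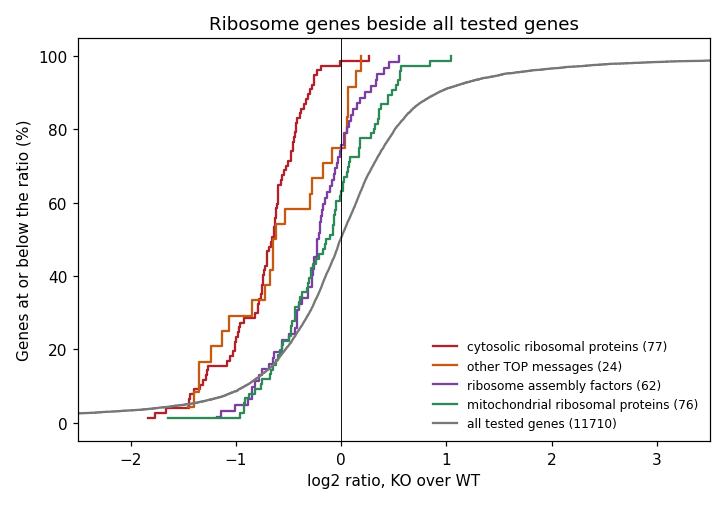
Cumulative share of genes (percent, vertical axis) at or below each log2 ratio of KO over WT (horizontal axis) for the tested cytosolic ribosomal proteins, other TOP messages, ribosome assembly factors, mitochondrial ribosomal proteins and all tested genes. The medians are -0.66, -0.63, -0.22, -0.13 and -0.01 in that order.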

How the data were processed

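PolyA-selected RNA of a Dicer KO and a Dicer WT line was sequenced, per the labels' protocols, in pairs of reads 50 bases long. Deposited by the authors was 1 table with 23227 symbols. Per the file headers, it holds a signal per gene, the mean of read counts divided by size factors, for conditions A and B. It also holds the fold of B over A, its log2 and p-values with adjusted p-values, all deposited by the authors and not recomputed here. Neither is named in the header. B was taken to be KO, and A to be WT, because the comparison's title names WT before KO, and all directions depend on this. Named in the submitters' processing notes are the build mm9, DESeq 1.10.1 and TopHat 1.4.0, with no role or order. Not given in the sources used here are the annotation, the read counter and its handling of reads that fit several places.

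Each deposited mean resolved into whole reads of 2 libraries per genotype, with exactly 1 solution for 100% of the 16350 genes above 0 in KO and the 16386 above 0 in WT. These libraries are called deeper and shallower after their totals. The labels list 1 sample per genotype, so their relation is unknown and their spread may be technical.

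Genes were tested at a mean of at least 20 normalised reads. A gene was called at a ratio of means of at least 2 or at most 0.5 whose 95% exact (Clopper-Pearson) interval excluded 1. The interval covers counting error only, since these reads are not independent molecules. The authors' adjusted p was read at 0.1. limma 3.58.1 (R 4.3.3, trend) was run on log2(normalised reads + 1) over all tested genes, with Benjamini-Hochberg adjustment read at 0.05. Fold changes on that scale understate those of low genes. Scripts ran in Python 3.11.15 and were tested on simulated data. Alternatives were scaling by total reads or by TMM factors computed from the recovered reads, other filters and thresholds, each library left out, and other summaries.

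Members and lists were chosen with earlier results of these data known. Named with values are the 6 most abundant members, the 6 highest and the 6 lowest ratios, every called member, paralogues beside their main gene, members with well-known roles, and up to 4 called genes of each other list. Rpl37a, just outside the threshold, and the other genes named beside these were chosen after their values were seen. Transcript lengths came from the shortest principal transcript of GENCODE mouse release M21, and promoters from RefSeq on GRCm38.p6. Both differ from mm9, so they were matched by symbol only. A few genes of these lists are counted but not reported here by name.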

Additional observations from a re-analysis of the deposited data

How the results depend on the processing

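The number of members at least 2-fold lower in KO (17) was 50 at 1.5-fold, against 17.9% of all tested genes. At the lowest fold limit tried, which was below 1.5-fold, 68 members were lower, against 28.3% of all tested genes. At that limit 0 members were higher, against 28.4%. With each library left out, the number at least 2-fold lower lay between 7 and 54. The median log2 ratio of the members (-0.66) lay between -1.11 and -0.29 with each library left out, that of the large subunit between -1.16 and -0.29 and that of the small subunit between -1.10 and -0.31. For the deeper KO over the shallower WT library the medians were -1.35 over all members, -1.38 for the large and -1.31 for the small subunit, and for the shallower KO over the deeper WT library they were -0.035, -0.018 and -0.086. The large minus small difference lay between -0.052 and 0.037 with each library left out. The 14 members called in the authors' deposited table at an adjusted p of 0.1 became 9 at 0.05. With limma 10 members were lower at an adjusted p under 0.1 and 1 at 0.05. When both KO libraries had to lie below both WT libraries the count was 45. For the 9 and the 10, no share of all tested genes is given here. The cause of the differences between these counts was not tested. Scaling by total reads gave a median of -0.60 over members and TMM scaling -0.67, where the median of all tested genes was 0.06 and -0.01. Of 336 comparisons of a named member with an alternative, 308 had the same sign. All of them used the same 4 libraries, so the count is a description. Sign changes were most frequent when each member was taken as a share of the reads of all members. That scale sets the members against each other, so sign changes there follow from how it is built. On it, 19 of the 42 named members changed sign, 15 were weaker, 1 was stronger and 7 stayed the same. Scaling by total reads changed the sign of 1 named member, and with TMM scaling all 42 stayed the same. No paired analysis was possible because the labels give 1 sample per genotype and the recovered libraries carry no replicate numbers. With 2 libraries per genotype of unknown relation, p-values measure only the spread between these libraries.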
